A study of Rattus norvegicus with 4 samples.

Results

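Genes of the actin cytoskeleton and of focal adhesions were followed in rat aortic smooth muscle cells given platelet-derived growth factor BB (PDGF-BB). The list held 53 genes, and 49 of them were measured, among 12922 genes in all, each by its brightest probe set with a single annotated symbol (highest mean over all 4 arrays). Actb, Myl6, Cfl1 and Dstn were matched only by probe sets that carry the symbols of several genes and were not analysed here. The rat cells, described in the labels as vascular smooth muscle, were plated at 10000 per cm2 with 10% fetal bovine serum for 24 h, then kept for 72 h in medium lacking serum and insulin. PDGF-BB was then given at 30 ng/mL for 3 h to 2 samples, and its vehicle, acetic acid at 10 mM with 0.2% bovine serum albumin, to the other 2. Both groups therefore share the starvation. Total RNA was hybridised to 1 Affymetrix array per sample. The stated purpose was to find genes that respond early as these cells change phenotype.

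Actin filaments are built from actin monomers, carry tropomyosins along their length and are pulled by myosin II, whose activity is set by phosphorylation of its light chains. Crosslinkers such as filamins and alpha-actinins hold filaments in bundles and networks, and focal adhesions tie the ends of stress fibres to integrins through vinculin, talin, paxillin and zyxin. In smooth muscle of the arterial wall the same machinery serves contraction. PDGF-BB is known to make cultured smooth muscle cells migrate and lower their contractile genes, and many of these genes carry CArG boxes, the DNA element bound by serum response factor (SRF).

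With PDGF-BB, 3 focal adhesion genes, the crosslinker gene Flnc and Diaph1, a gene of actin turnover, were among those that rose. The actins of the list, most tropomyosins and most myosin genes did not pass the test. Of the measured actins 2 of 3, and of the tropomyosins 3 of 4, had means over 8000, where 5.6% of all genes passed. Of the 49 measured genes, 9 were higher with PDGF-BB, 3 were lower and 37 did not pass an adjusted p of 0.05 by limma. The rise was largest for Palldl1, Flnc, Pxn and Vasp, and the 3 genes that fell were Palld, Ppp1r14a and Lima1. Read against all genes, 18.4% of the members were higher where 12.4% of all 12922 genes were, and 6.12% were lower where 15.3% of all genes were (24.5% against 27.7% in either direction). In 81.6% of the members the arrays of the groups did not overlap, against 67.5% of all genes. PDGF-BB exceeded vehicle on every array in 23 of the 49 members, against 29.7% of all genes. It fell short of vehicle on every array in 17 of the 49, against 37.8%. Only 6 of the 49 members had means up to 1000, and these shares of all genes were not matched for brightness. The median log2 fold change was 0.02 over the members and -0.03 over all genes, and the former was 0.10 with array medians subtracted and -0.07 after cyclic loess. Each fold change subtracts vehicle from PDGF-BB on the scale of log2(intensity + 16), which understates the change of dim genes.

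These calls rest on 2 arrays per group, and the labels do not say whether replicate arrays stem from independent cultures, so the spread behind the p-values may be technical. Without vehicle replicate 1 the fit called 4 members higher and 0 lower, and without vehicle replicate 2 it called 3 higher and 0 lower. Over all genes, the same fits called 3.8% higher and 2.32% lower, and 4.06% higher and 2.5% lower. Without PDGF-BB replicate 1 it called 7 higher and 2 lower, and without PDGF-BB replicate 2 it called 7 higher and 0 lower, where 8.21% and 12.6% of all genes, then 8.01% and 6.65%, were called. All 12 genes kept their direction in each of these fits, and Palldl1, Flnc and Pxn stayed called in all of them. The RNA came from whole cultures, so less RNA per cell and fewer cells with that RNA cannot be told apart.

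The arrays carried median intensities of 132 to 148, and the number of arrays limits the precision. The highest intensity of 27 Bacillus control probe sets, 80.3, served as a rough yardstick of background. The smooth muscle markers Acta2, Tagln and Cnn1 were among the brightest probe sets, while Pecam1, Vwf, Kdr and Tie1, the endothelial markers measured, had means below 80.3 in both groups. Of the leukocyte markers, Ptprc, Cd68, Csf1r and Itgam were below it as well and Cd14 was not, with means of 1434 and 1209. Of the fibroblast markers, 2 of 5 were below it in both groups. Of the skeletal and cardiac muscle markers, 4 of 7 were below it, Ckm and Tnnt2 had group means between 123.5 and 168, and Myh6 had means of 3101 and 2705. Of 7 smooth muscle markers, Lmod1, Smtn and Myh11 were lower with PDGF-BB (42.9%, where 15.3% of all genes were lower). Their limma adjusted p-values were 0.00246, 0.00930 and 0.0256, in that order. Under vehicle and then PDGF-BB, Smtn had means of 4500 and 2594, Lmod1 1818 and 548, Myh11 453 and 274, and Des 181 and 209. All of these were dimmer than Acta2, Tagln and Cnn1.

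**Figure D1:**
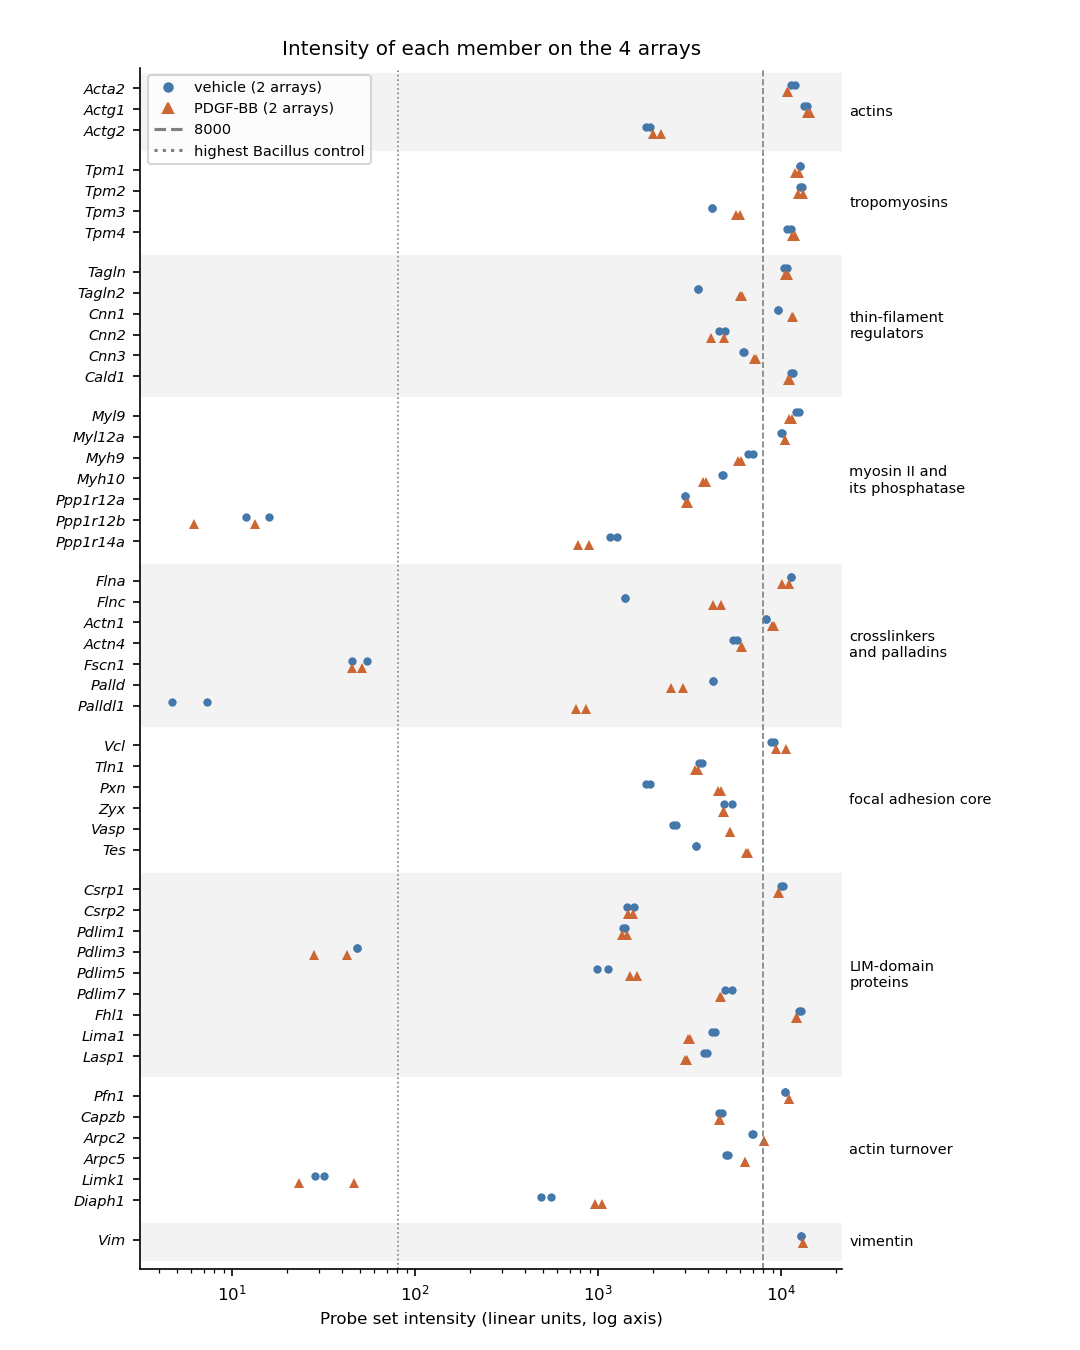
Intensity of the brightest probe set of each of the 49 measured genes (horizontal, linear units on a log axis), by class, on the 2 vehicle arrays (circles) and the 2 PDGF-BB arrays (triangles); the dashed line marks 8000 and the dotted line 80.3. The circles and triangles of Flnc, Pxn, Vasp, Tes, Tagln2, Diaph1 and Palldl1 stand apart, while those of the 17 genes over 8000 lie close together.

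Promoter sequences were examined because smooth muscle cytoskeletal genes are textbook SRF targets. RefSeq promoters on the rat build GRCr8 were found for 44 of the 49 measured genes. The 250 bases before each start were searched on both strands, for exact matches only. The patterns were CCWWWWWWGG for the CArG box (W is A or T), TGANTCA for the AP-1 element and GGAATG for the TEAD element. A CArG box that differs from its pattern in a base, or lies outside this window, was not counted. A CArG box lay in 4 of 56 promoters of the members (7.14%), against 1.5% of all 33469 promoters. The 4 were those of Actg1, Cnn2, Fhl1 and Lima1. Of the 9 genes that rose, 0 held a CArG box or an AP-1 element in this window. The TEAD element was present in 12 of the 56 promoters (21.4%), against 12.1% of all, among them Flnc and Tagln2, which rose, and Palld, which fell. By gene, 2 of 9 that rose (22.2%), 1 of 3 that fell and 9 of 32 that did not pass (28.1%) held it. The AP-1 element was present in 2 of 56 (3.57%), those of Actg2 and Myh9, against 6.34% of all. The 4 promoters with a CArG box are shown because 3 of these genes did not pass and 1 fell, and those of Flnc and Tagln2 because these genes rose and hold the TEAD element. Each runs 5′ to 3′ over the 250 bases before the start on GRCr8, with the matches in capitals.
Actg1, chr10:106120952-106121201, minus strand: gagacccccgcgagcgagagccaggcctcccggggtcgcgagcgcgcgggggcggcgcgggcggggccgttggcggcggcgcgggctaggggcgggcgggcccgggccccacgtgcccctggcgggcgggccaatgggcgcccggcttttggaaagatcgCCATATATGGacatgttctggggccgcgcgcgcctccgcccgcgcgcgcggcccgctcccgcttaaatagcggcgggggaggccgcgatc
Cnn2, chr7:10370313-10370562, minus strand: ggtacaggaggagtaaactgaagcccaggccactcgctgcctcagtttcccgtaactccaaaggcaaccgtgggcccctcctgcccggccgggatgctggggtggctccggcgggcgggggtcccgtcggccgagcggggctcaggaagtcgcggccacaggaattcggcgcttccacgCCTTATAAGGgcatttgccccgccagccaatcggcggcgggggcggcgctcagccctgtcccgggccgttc
Fhl1, chrX:139638246-139638495, plus strand: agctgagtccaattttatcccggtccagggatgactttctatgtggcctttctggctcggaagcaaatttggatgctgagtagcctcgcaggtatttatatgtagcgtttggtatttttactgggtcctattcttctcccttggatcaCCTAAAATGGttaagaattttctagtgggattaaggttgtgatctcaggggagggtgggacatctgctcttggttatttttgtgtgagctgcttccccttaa
Lima1, chr7:132880344-132880593, minus strand: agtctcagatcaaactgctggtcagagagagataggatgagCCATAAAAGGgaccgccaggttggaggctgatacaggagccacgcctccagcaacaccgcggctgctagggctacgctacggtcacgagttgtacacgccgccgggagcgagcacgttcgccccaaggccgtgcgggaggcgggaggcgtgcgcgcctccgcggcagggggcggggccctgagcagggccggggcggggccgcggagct
Flnc, chr4:58999297-58999546, plus strand: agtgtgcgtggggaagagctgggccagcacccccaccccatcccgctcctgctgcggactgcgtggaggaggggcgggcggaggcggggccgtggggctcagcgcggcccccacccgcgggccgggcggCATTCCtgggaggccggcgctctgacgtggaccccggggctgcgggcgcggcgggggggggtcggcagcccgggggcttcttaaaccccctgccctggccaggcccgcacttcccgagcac
Tagln2, chr13:87499158-87499407, plus strand: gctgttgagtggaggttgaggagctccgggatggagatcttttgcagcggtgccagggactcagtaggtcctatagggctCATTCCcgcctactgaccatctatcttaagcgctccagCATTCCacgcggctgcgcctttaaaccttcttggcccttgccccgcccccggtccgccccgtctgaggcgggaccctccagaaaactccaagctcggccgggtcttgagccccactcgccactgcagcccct
In these sequences the box of Actg1 runs from position -90 to -81 relative to the start, that of Cnn2 from -71 to -62, that of Fhl1 from -102 to -93 and that of Lima1 from -209 to -200. The TEAD element of Flnc runs from -121 to -116, and Tagln2 has 2, from -170 to -165 and from -132 to -127. A match is a string of letters, and binding was not measured.

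The 3 actins of the list that were measured, Acta2, Actg1 and Actg2, did not pass the threshold, while Acta1, the skeletal muscle actin in the list of other cytoskeleton genes, was lower. Acta2, smooth muscle alpha-actin and the main actin of the contractile filaments, read 11302 and 11946 under vehicle and 10953 and 10802 under PDGF-BB, which gives a log2 difference of -0.10 with a 95% interval of -0.33 to 0.14. Both PDGF-BB values lay below both vehicle values, by less than the fit could separate. Actg1, the cytoplasmic gamma-actin, read 13404 and 13769 under vehicle and 14477 and 13796 under PDGF-BB, which gives a log2 difference of 0.06 (-0.18 to 0.29) that turned negative after cyclic loess. Actg2, the gamma-actin of visceral smooth muscle, read 1912 and 1817 under vehicle and 1988 and 2219.9 under PDGF-BB. Its log2 fold change of 0.17 ± 0.10 (SE), with an adjusted p of 0.305 by limma, was the largest of the class. Of these 3, limma called 0, and 0 had an unadjusted p under 0.05. Actin genes are alike over long stretches, and whether their probe sets share signal was not tested.

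Among tropomyosins, the coiled-coil proteins that line actin filaments and set which other proteins bind, Tpm3 rose and the other 3 did not pass. Tpm3 read 4193 and 4186 under vehicle and 5697 and 5937 under PDGF-BB. The groups were well apart, at a log2 fold change of 0.47 ± 0.09 (SE), with an adjusted p of 0.0246 by limma. Tpm3 has 12 probe sets of its own symbol, of which limma called 8, all higher. The 7 brightest were all called, with log2 fold changes of 0.44 to 0.84. Those of the s and x types (4 of the 7) can bind transcripts of more than 1 gene. The Tpm3 call was lost without either vehicle array (adjusted p 0.174 and 0.171) and without PDGF-BB replicate 1 (0.0529) or 2 (0.0702). Tpm1 read 12618 and 12729.9 under vehicle and 12471 and 11889 under PDGF-BB, Tpm2 12722 and 13032 then 13163 and 12381, and Tpm4 10721 and 11376 then 11939 and 11498. The values of Tpm2 overlap, those of Tpm1 lie lower with PDGF-BB and those of Tpm4 higher. Their log2 fold changes were -0.06, -0.01 and 0.09, of which the first 2 changed sign with array medians subtracted and the last after cyclic loess.

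Calponins, transgelins and caldesmon bind along actin filaments and restrain or stabilise them. In this class Tagln2, the transgelin found widely outside smooth muscle, rose and the other 5 did not pass. Tagln2 read 3513 and 3505 under vehicle and 6123 and 5980.4 under PDGF-BB. The rise was 1.72-fold, a log2 fold change of 0.78 ± 0.09 (SE), with an adjusted p of 0.00700 by limma. The call was lost without vehicle replicate 1 (0.0758) or vehicle replicate 2 (0.0735), at a log2 difference of 0.78 in both. Its smooth muscle relative Tagln read 10314 and 10778 under vehicle and 10961 and 10484 under PDGF-BB. These values overlap, with a log2 fold change of 0.02 (-0.22 to 0.26) whose sign changed after quantile normalization and cyclic loess. Cnn1, the smooth muscle calponin that inhibits myosin's ATPase activity on actin, read 9597 and 9622 under vehicle and 11585 and 11489 under PDGF-BB. The groups did not overlap, and the log2 fold change of 0.26 (SE 0.08) had a limma adjusted p of 0.0944. Under 3 alternatives Cnn1 passed: an offset of 64 (0.0304), array medians subtracted (0.0436) and the filter on dim probe sets (0.0380), over a range of 0.0304 to 0.377. Cnn3, the acidic calponin, had a log2 fold change of 0.20, and Cnn2 one of -0.08. Cald1, caldesmon, read 11352 and 11612 under vehicle and 10968 and 11170.4 under PDGF-BB, a difference of -0.05 on the log2 scale that turned positive with array medians subtracted.

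Of the genes of myosin II and its phosphatase, 1 of 7 was lower (14.3%) and 0 were higher. Over all genes, 15.3% were lower and 12.4% higher, so the share lower is near background. Ppp1r14a encodes a smooth muscle inhibitor of myosin phosphatase, which when phosphorylated keeps the myosin light chains phosphorylated. It read 1276 and 1165 under vehicle and 887 and 781 under PDGF-BB. The groups were apart, and the fall was 1.46-fold, a log2 fold change of -0.54 ± 0.11 (SE), with an adjusted p of 0.0337 by limma. That call was lost in each fit without 1 array, at 0.202 and 0.134 without vehicle replicate 1 or 2 and 0.0567 and 0.0981 without PDGF-BB replicate 1 or 2. It was also lost with an offset of 1 (0.0661). Myh10, a nonmuscle myosin heavy chain, read 4827 and 4780.2 under vehicle and 3879 and 3724 under PDGF-BB. Its groups were apart too, but the log2 fold change of -0.34 (SE 0.09) had a limma adjusted p of 0.0565, and 0.0113 to 0.291 over the alternatives, of which 5 passed. Myh9, another nonmuscle heavy chain, had a log2 fold change of -0.20 (limma adjusted p 0.209) and passed after quantile normalization (0.0428). Myl9, a regulatory light chain of smooth muscle myosin, read 12006 and 12533 under vehicle and 11409.6 and 11045 under PDGF-BB. Myl12a, its nonmuscle counterpart, read 10027 and 10054 under vehicle and 10481 and 10468 under PDGF-BB. Neither pair of groups overlaps, with log2 fold changes of -0.13 (-0.36 to 0.11) and 0.06 (-0.16 to 0.29). The latter changed sign after quantile normalization and cyclic loess. Ppp1r12a, the subunit that targets the phosphatase to myosin, read 2998 and 2978 under vehicle and 3109 and 3007 under PDGF-BB, which gives a log2 difference of 0.03 that turned negative after quantile normalization and cyclic loess, while Ppp1r12b was below 80.3 on all 4 arrays.

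Crosslinkers and palladins held both the largest rise and the largest fall among the members. Flnc, filamin C, the muscle filamin that crosslinks actin, read 1400.4 and 1406 under vehicle and 4704 and 4261 under PDGF-BB. Both PDGF-BB values were well above both vehicle values, a 3.17-fold rise and a log2 fold change of 1.66 ± 0.10 (SE), with an adjusted p of 0.00186 by limma. The call held under all 13 alternatives, with adjusted p-values up to 0.0271. By contrast, Flna, filamin A, read 11324 and 11360.3 under vehicle and 10985 and 10126 under PDGF-BB, which gives a log2 difference of -0.10 (-0.35 to 0.14). Actn1 and Actn4 are alpha-actinins, which crosslink filaments into bundles. Actn1 read 8316 and 8284 under vehicle and 8964 and 9159 under PDGF-BB, and the 2 genes had log2 fold changes of 0.13 and 0.12. The latter changed sign after quantile normalization. The filament-bundling gene Fscn1 was below 80.3 on all arrays.

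Palld and Palldl1 lie on the same strand of chromosome 16 in the RefSeq annotation and moved in opposite directions. Palld encodes palladin, a scaffold that binds alpha-actinin in stress fibres and adhesions. It read 4265 and 4224 under vehicle and 2922 and 2502 under PDGF-BB, 1.57-fold lower, at a log2 fold change of -0.65 ± 0.11 (SE), with an adjusted p of 0.0215 by limma. Its call was lost without either vehicle array (0.137 and 0.129) and without PDGF-BB replicate 2 (0.0566). Palldl1, annotated under a palladin-like symbol, was at 4.72 and 7.32 with vehicle, far below 80.3, and at 862 and 753 with PDGF-BB. The groups were wholly separate, at a log2 fold change of 5.22 ± 0.12 (SE), with an adjusted p of 0.000433 by limma, called under all 13 alternatives with values of 3.64 to 6.87. Because the vehicle values are below the yardstick, the size of that fold depends on the offset, and set against 80.3 the PDGF-BB mean of 808 was at least 10.1-fold higher. Each gene rests on 1 probe set, and which transcripts these detect was not tested.

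The focal adhesion core had the largest share of called members, 3 of 6, all higher, where 12.4% of all genes were higher. Apart from Vcl, its genes had means between 1000 and 8000, where 21.2% of all genes were higher. The classes differ in brightness, and of all genes over 8000 only 5.6% were called. Pxn, paxillin, the scaffold on which adhesion kinases and their partners assemble, read 1822 and 1912 under vehicle and 4693 and 4496 under PDGF-BB. It rose 2.45-fold, a log2 fold change of 1.29 ± 0.09 (SE), with an adjusted p of 0.00267 by limma, and was called under all 13 alternatives. Vasp, which speeds filament growth at adhesions and leading edges, read 2674 and 2562 under vehicle and 5266 and 5233 under PDGF-BB. The rise was 2.00-fold, with an SE of 0.09 on the log2 scale and an adjusted p of 0.00441 by limma, and the call was lost without vehicle replicate 2 (0.0525). Tes, testin, an adhesion protein with LIM domains, read 3436 and 3429 under vehicle and 6403 and 6605 under PDGF-BB. Its log2 fold change reached 0.92 ± 0.09 (SE), with an adjusted p of 0.00507 by limma, and the call was lost without vehicle replicate 1 (0.0591) or 2 (0.0574). All 3 probe sets of Tes were called, at 0.92, 1.12 and 1.25.

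The structural adhesion proteins did not pass. Vcl, vinculin, which links talin to actin, read 9137 and 8803 under vehicle and 9384 and 10614.5 under PDGF-BB, which gives a log2 difference of 0.15 (-0.13 to 0.44). Tln1, talin, which activates integrins, read 3714 and 3569.6 under vehicle and 3516 and 3376 under PDGF-BB, which gives a log2 difference of -0.08 (-0.32 to 0.16). Zyx, zyxin, a partner of Vasp in stress fibres, read 5364 and 4872 under vehicle and 4865 and 4801 under PDGF-BB, which gives a log2 difference of -0.08 (-0.34 to 0.18). For these 3 genes the intervals exclude a doubling of the array signal in either direction. The intervals rest on 2 arrays per group, whose spread may be technical. Whether the brightness of Vcl compresses a difference was not tested. The dimmer probe set of Vcl had a log2 difference of 0.31 (-0.005 to 0.62).

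Of the LIM-domain proteins of actin bundles, 1 of 9 was higher and 1 lower (11.1% each). Over all genes, 12.4% were higher and 15.3% lower, so both shares are near background. Pdlim5, which ties kinases to alpha-actinin, read 989 and 1134 under vehicle and 1635 and 1496 under PDGF-BB, which gives a log2 difference of 0.56 ± 0.11 (SE), with an adjusted p of 0.0334 by limma. Its dimmer probe set also rose, by 0.83 (limma adjusted p 0.00720). The call of the brighter one was lost in each fit without 1 array, at 0.197 and 0.109 for the vehicle arrays and 0.106 and 0.0865 for the PDGF-BB arrays, and with an offset of 1 (0.0663). Lima1, which bundles filaments and slows their disassembly and whose promoter with a CArG box is printed above, read 4328 and 4184 under vehicle and 3094 and 3180.4 under PDGF-BB. It fell 1.35-fold, a log2 fold change of -0.44 ± 0.09 (SE), with an adjusted p of 0.0300 by limma. That call was lost in each fit without 1 array (0.210 and 0.173, then 0.0707 and 0.0715), with an offset of 1 (0.0548) and with array medians subtracted (0.0525). Lasp1, an actin-binding adhesion protein, read 3772 and 3924 under vehicle and 3047 and 3001 under PDGF-BB, which gives a log2 difference of -0.35 ± 0.09 (SE), with an adjusted p of 0.0534 by limma and of 0.0110 to 0.703 over the alternatives, of which 4 passed. Its dimmer probe set had a log2 fold change of 0.22 (limma adjusted p 0.395), so the 2 probe sets differ in sign. Csrp1, a cysteine-rich protein of smooth muscle, read 10034 and 10229 under vehicle and 9717 and 9576 under PDGF-BB. Fhl1, a protein built of LIM domains, read 12458 and 12889 under vehicle and 12189 and 12008 under PDGF-BB. Both had log2 fold changes of -0.07, and both changed sign with array medians subtracted. Csrp2 and Pdlim1 were at 0.01 and -0.0007 and changed sign under several settings, and Pdlim7 was at -0.15. Pdlim3 lay below 80.3 on all arrays. It was among the members called lower without PDGF-BB replicate 1, though not with all 4 arrays.

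Of the genes of actin turnover, 1 of 6 was higher (16.7%) and 0 were lower, where 12.4% of all genes were higher and 15.3% lower. Diaph1, a formin that nucleates and extends unbranched filaments, read 489.8 and 550.2 under vehicle and 1052 and 958 under PDGF-BB. The rise was 1.91-fold, a log2 fold change of 0.93 ± 0.11 (SE), with an adjusted p of 0.00843 by limma, and the call was lost without vehicle replicate 1 (0.0740) or 2 (0.0541). Arpc5, a subunit of the Arp complex that nucleates branched filaments, read 4994 and 5128 under vehicle and 6383 and 6391 under PDGF-BB. Its groups were apart, and the log2 fold change of 0.33 (SE 0.09) had a limma adjusted p of 0.0550, and 0.0144 to 0.302 over the alternatives, of which 4 passed. Arpc2, another subunit of that complex, had log2 fold changes of 0.22 and 0.36 in its 2 probe sets (limma adjusted p 0.146 and 0.0553). Pfn1, profilin, which delivers monomers to growing ends, read 10487 and 10498 under vehicle and 11109.6 and 11035 under PDGF-BB, a log2 difference of 0.08 that turned negative after cyclic loess. Capzb, which caps those ends, had a log2 difference of -0.01, positive with array medians subtracted. Its dimmer probe set, with a mean of 88.7, had a log2 difference of 0.44 (limma adjusted p 0.0895). Limk1, the kinase that inactivates cofilin, was below 80.3 on all arrays. Vim, vimentin, an intermediate filament protein and not part of the actin system, read 12897 and 12839 under vehicle and 13141 and 13169 under PDGF-BB, which gives a log2 difference of 0.03 (-0.19 to 0.26) that turned negative after cyclic loess.

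**Figure D2:**
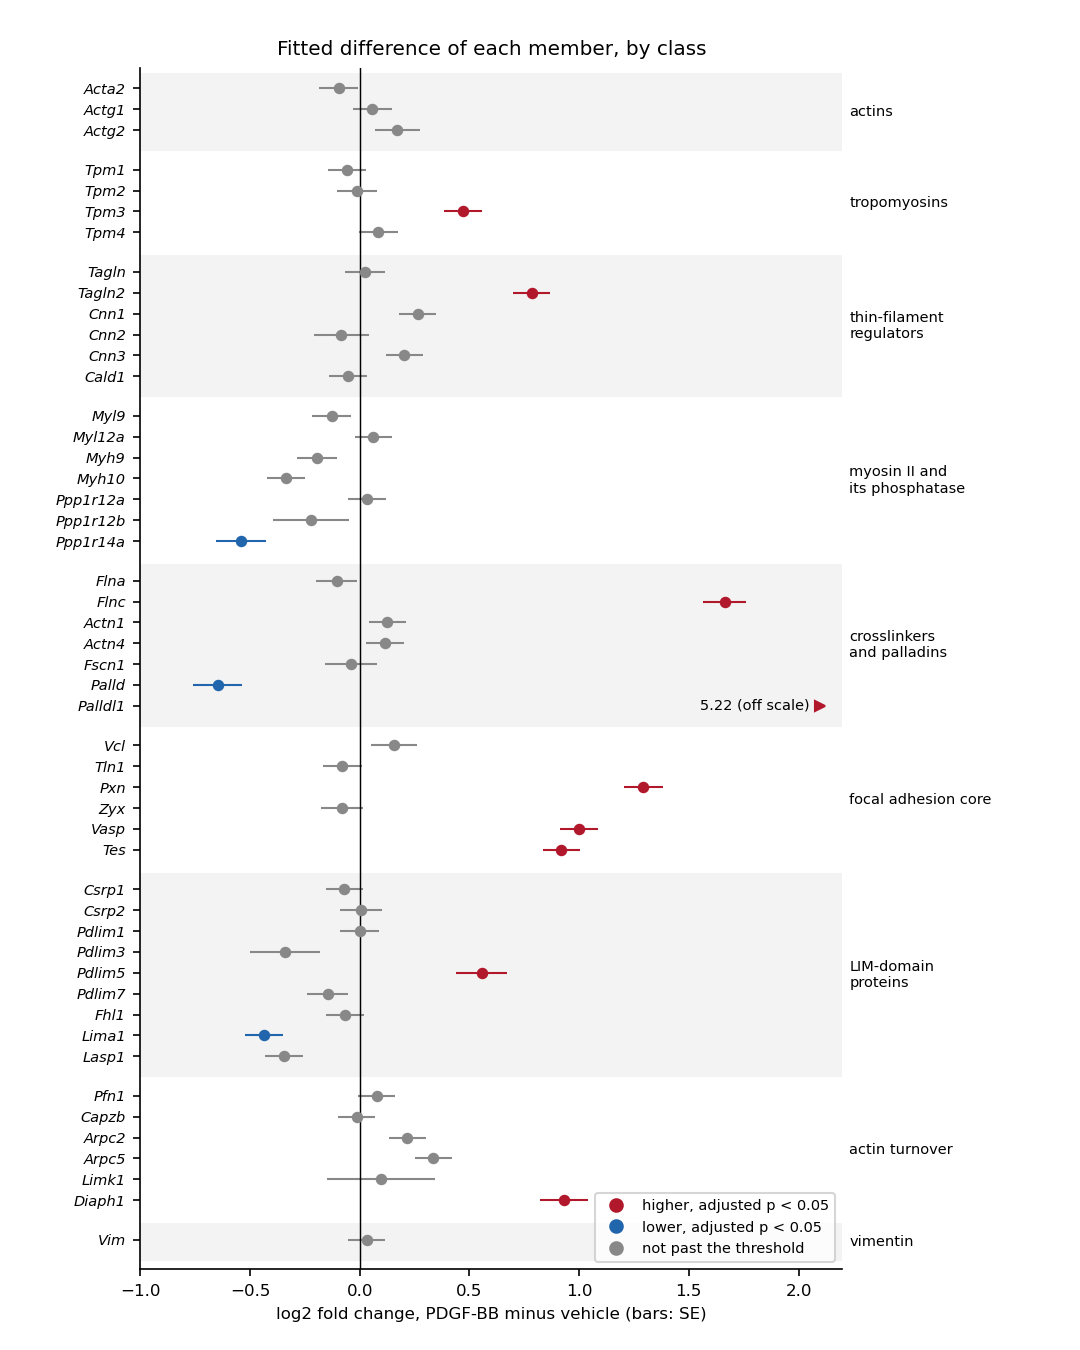
Log2 fold change of each measured gene, PDGF-BB minus vehicle, with its SE, by class; red marks the 9 genes called higher and blue the 3 called lower, and Palldl1, at 5.22, is drawn at the edge of the axis. The crosslinker, adhesion and LIM-domain classes hold more than 1 called gene each, and the tropomyosin, thin-filament, myosin and turnover classes hold 1 each.

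Brightness separated the members that were called from many that were not. Of the 17 members with a mean over 8000, limma called 0, and 1 had an unadjusted p under 0.05, Cnn1. Over all 125 genes that bright, limma called 4.8% higher and 0.8% lower, 5.6% in all, so 0 of 17 is near that background. The log2 fold changes of these 17 ran from -0.13 to 0.26, and their 95% intervals reached from -0.36 to 0.49. Yet 88.2% of them had groups that did not overlap, 8 with PDGF-BB above and 7 with PDGF-BB below, against 57.6% of all genes over 8000. Of the 26 members between 1000 and 8000, 7 were higher and 3 lower, 26.9% and 11.5%, where 21.2% and 11% of all 2845 genes in that range were. Of the 6 members up to 1000, Palldl1 and Diaph1 were higher, and the other 4 lay below 80.3 on every array.

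**Figure D3:**
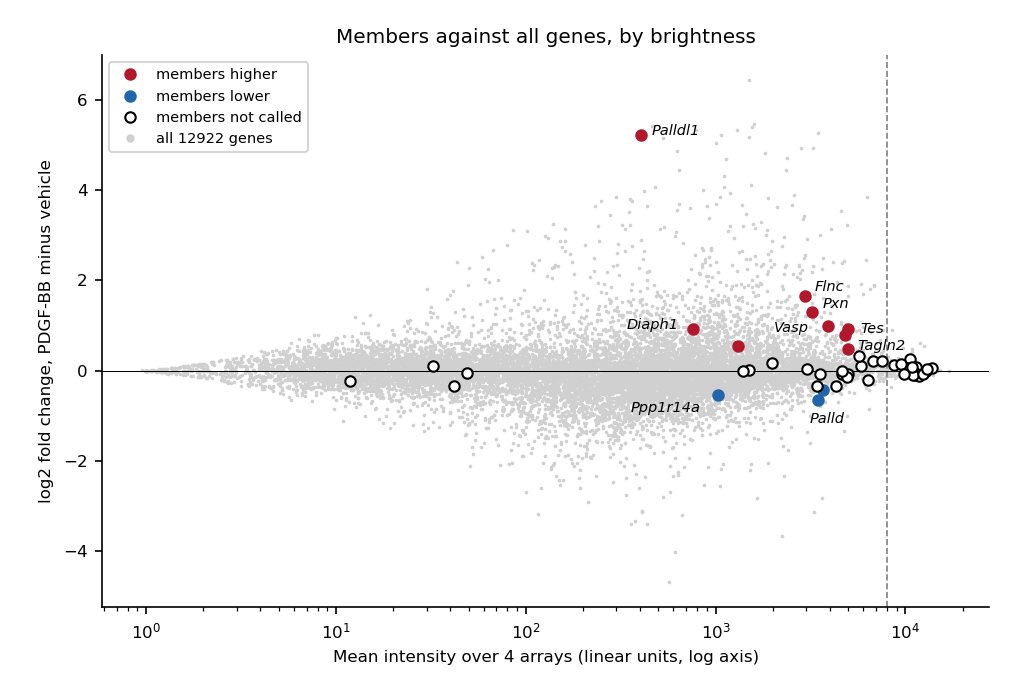
Log2 fold change (vertical) against mean intensity over the 4 arrays (horizontal, log axis) for all 12922 genes in grey and for the measured members, coloured by call; the dashed line marks 8000. To its right the 17 members lie between -0.13 and 0.26.

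The dimmer probe sets of the 17 bright genes read the same genes at lower intensity. Only 7 of the 17 have more than 1 probe set, with 12 dimmer ones in all. Limma called 0 of these 12, and 0 had an unadjusted p under 0.05. Their log2 fold changes ran from -0.18 to 0.31. The second probe sets of Tpm1 and Fhl1 were still bright, with means of 9578 and 9565. The dimmest of Tpm1 had means of 116 and 99.3, with log2 fold changes of 0.004 and -0.01. The dimmest of Cald1 had a mean of 2.32, below 80.3, and a log2 fold change of 0.14. The count of 0 was not set beside a share over all probe sets of like intensity. In Vcl the dimmer probe set read 6533 and 7518 under vehicle and 8304 and 9071 under PDGF-BB, which gives a log2 difference of 0.31 beside 0.15 for the brighter one. It passed with dim probe sets filtered out (limma adjusted p 0.0470). In Tpm4 the dimmer probe set had a log2 fold change of 0.22 beside 0.09, and in Actg1 it had 0.16 beside 0.06. In Tpm1 the 3 probe sets next in brightness were at -0.09, -0.16 and -0.18 beside -0.06. In Actn1 the dimmer one had 0.11 beside 0.13, in Fhl1 -0.06 beside -0.07 and in Cald1 -0.15 beside -0.05. In Actg1, Tpm1, Tpm4, Cald1 and Vcl the next dimmer probe set lay farther from 0 than the brightest, and in Actn1 and Fhl1 it lay nearer. The difference between probe sets of 1 gene was not tested. The other 10 bright genes, Acta2, Tagln and Cnn1 among them, have 1 probe set each, and whether their brightness compresses a difference was not tested.

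**Figure D4:**
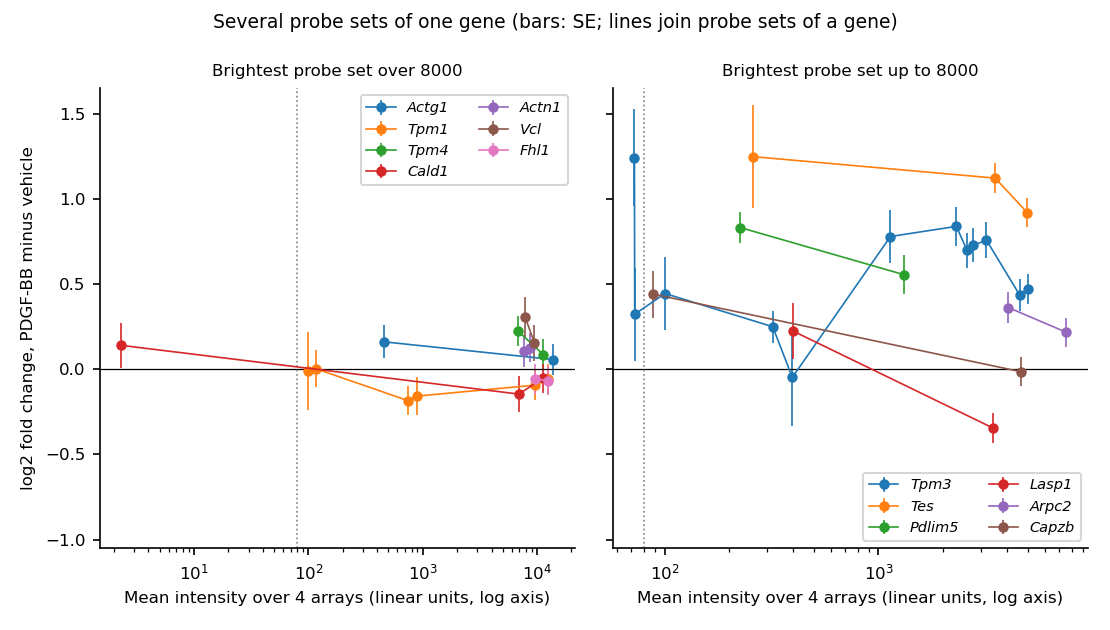
Log2 fold change with its SE (vertical) against mean intensity (horizontal, log axis) for each probe set, joined by gene. Left, the 7 genes over 8000 with several probe sets. Right, 3 called genes with several and 3 that were not called, Lasp1, Arpc2 and Capzb. The dotted line marks 80.3. On the left the probe sets lie between -0.18 and 0.31, and on the right the 7 brightest of the 12 Tpm3 probe sets lie between 0.44 and 0.84.

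Other genes of the same machinery, a list of 70 of which 61 were measured, gave 14 higher, 8 lower and 39 that did not pass, with a median log2 fold change of 0.08. Higher calls made up 23% of this list beside 12.4% over all genes, and lower calls 13.1% beside 15.3%. Most of the list had means between 1000 and 8000, where 21.2% of all genes were higher and 11% lower. Both shares are near that background, but they cover the whole list, part of which, such as Myo1e, had means below 1000. Shares of the list within that range were not computed. Among those with the smallest p, Ezr, which links actin to the membrane, rose by 2.31 (SE 0.09), from a mean of 1079 to 5418. Myo1e, a membrane-binding myosin, rose by 1.79 (SE 0.12). Nexn, an actin-binding protein of muscle, fell by 0.81 (SE 0.09), and Acta1, skeletal muscle alpha-actin, fell by 0.51 (SE 0.08). The limma adjusted p-values of these 4 genes were at most 0.0191. Without vehicle replicate 1 or 2 the list gave 6 higher and 1 lower, without PDGF-BB replicate 1 it gave 9 and 5, and without PDGF-BB replicate 2 it gave 8 and 2.

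**Figure D5:**
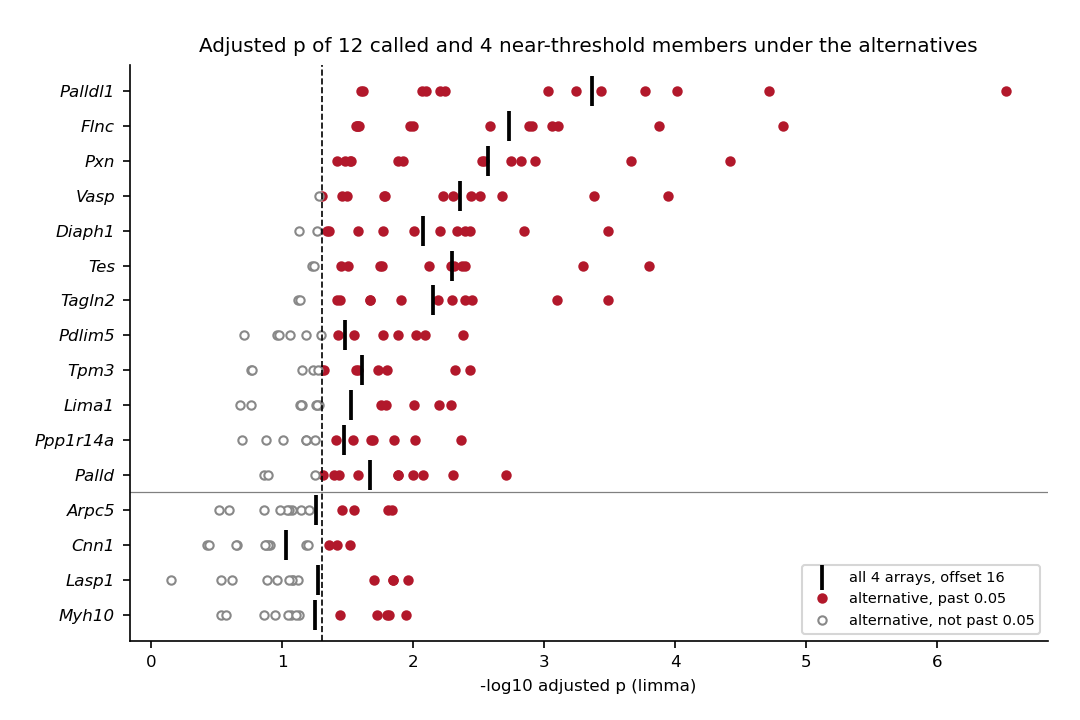
Limma adjusted p on a -log10 axis for the 12 called genes (above the grey line) and for 4 genes near the threshold, with all 4 arrays (black bar) and under each alternative (dots, filled where past 0.05, the dashed line). Palldl1, Flnc and Pxn stay past the line throughout, while Lima1, Ppp1r14a, Pdlim5, Tpm3 and Palld cross it under several settings.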

How the data were processed

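Per the values, the authors deposited linear intensities, 1 value per probe set and array. Their software, background correction and scaling are not stated in what was used. Of 23764 probe sets, 57 Affymetrix controls were left out. The other 23707 were tested as log2(intensity + 16) with no scaling added, using lmFit and eBayes (limma 3.58.1, R 4.3.3), on all 4 arrays. Tests were two-sided, and p-values were adjusted by Benjamini and Hochberg over all of these probe sets, with a threshold of 0.05. The platform annotation named a single gene for 17279 of them, more than 1 for 373 and none for 6055. Of the 49 members, 48 matched a RefSeq gene ID, with symbols unchanged. Groups were taken from GEO's labels. All 4 values are given for members called, those over 8000 and the largest uncalled change of each class, and of the other cytoskeleton genes those with the smallest p in each direction are named, apart from 2 that are not reported here. Members, classes and lists were chosen with earlier results of these data known, and the promoter motifs after values were seen. The fit was tested on simulated data. Alternatives were the offset, the scaling, a filter, the probe set rule, a replicate block and leaving out each array.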

Additional observations from a re-analysis of the deposited data

How the results depend on the processing

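All 12 called members kept their sign under the 13 alternatives, and Palldl1, Flnc and Pxn kept their call. Of the 37 others, 19 changed sign under at least 1 alternative. The causes of the changes below were not tested. The share of all genes called also moved: higher and lower calls made up 9.72% and 10.3% with an offset of 1, 15.3% and 19.9% with 64, 17.3% and 15.6% with array medians subtracted, 14.7% and 22.2% after quantile normalization, 16.4% and 17.4% after cyclic loess, 22.3% and 29.6% of 9104 genes with the filter, 14.2% and 17.5% with the mean of probe sets, 10.6% and 12.6% with the replicate block and 10.6% and 12% with it crossed. With an offset of 1, 1 member was called lower, 0 in the myosin class, 0 in the LIM-domain class, and 3 other cytoskeleton genes were lower. With an offset of 64, 5 members were called lower, and 2 each were called among thin-filament regulators, in the myosin class and in actin turnover. With array medians subtracted, the members' median log2 fold change was 0.10, with 2 thin-filament regulators, 1 LIM-domain gene and 2 turnover genes called. Quantile normalization gave a median of -0.0282, 6 members lower, 3 called in the myosin class and 13 other cytoskeleton genes lower. Cyclic loess gave a median of -0.0682, 5 members lower and 2 called in the myosin class. The filter on dim probe sets, which leaves fewer tests, gave 5 members lower, 2 called each among thin-filament regulators, in the myosin class and in actin turnover, and 1 dimmer probe set of a bright gene. The mean over all probe sets of a gene gave 2 called in the myosin class and 2 in actin turnover.

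Samples of the groups share replicate numbers, which the labels do not tie to a shared culture or day, and with 2 pairs the deviations of same-numbered arrays correlated at -0.10 over all probe sets and -0.14 over those above background. With the replicate block, 7 members were higher and 2 lower, 0 tropomyosins and 0 LIM-domain genes were called, and 5 other cytoskeleton genes were lower. With the numbers crossed, a replicate block chosen after seeing the data, 9 members were higher and 1 lower, 0 were called in the myosin class and 1 in the LIM-domain class, and 4 other cytoskeleton genes were lower.

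Leaving out 1 array left a group with a single array, assumed to vary like the other group. Members called higher ranged from 3 to 7 and lower from 0 to 2, and their median from -0.0081 to 0.0512. Called genes ranged from 0 to 0 for tropomyosins, 0 to 1 for thin-filament regulators, 0 to 0 for the myosin class, 2 to 3 for crosslinkers, 1 to 3 for the adhesion core, 0 to 1 for LIM-domain genes and 0 to 1 for turnover. Other cytoskeleton genes ranged from 6 to 9 higher and from 1 to 5 lower.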
